A study of Sus scrofa with 10 samples.

Results

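The subject of this report is 5 cytochrome P450 genes with which the pig liver clears skatole and drugs: *CYP2E1*, *CYP2A19*, *CYP1A2*, *CYP1A1* and *CYP2D25*. Members were the probe sets of the GeneChip Porcine array whose platform annotation gave exactly 1 of these symbols and no other. The rule found 5 probe sets of 23999 porcine ones, and they represented 4 of the 5 genes. *CYP2E1*, *CYP2A19* and *CYP1A1* had 1 probe set each and *CYP2D25* had 2, whereas no probe set carried the symbol *CYP1A2*, so *CYP1A2* was not analysed here. All 5 probe sets passed the filter on low values, a mean of at least 4 on the log2 scale over the 10 arrays.

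The livers came from backcross pigs, the offspring of first-cross Iberian x Landrace boars mated to Landrace sows, that were raised in one intensive system under standard management. Animals were ranked on the first principal component of carcass and fatty acid traits, and a larger set from each end formed the groups. The H group had high values and muscle fat richer in polyunsaturated fatty acids, and the L group low values and more saturated and monounsaturated fatty acids. From each group 5 females were then chosen with the help of the pedigree, so they need not be the most extreme animals. All 10 were labelled female and gave 1 array each of total liver RNA. Within a group the mothers differed, but there were fewer fathers than animals. Some animals of opposite groups were sibs, and the labels do not say which.

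Skatole is made from tryptophan by bacteria of the pig gut, is absorbed, and is broken down in the liver. Together with the testicular steroid androstenone it gives meat of entire males the odour called boar taint. P450 enzymes of the endoplasmic reticulum insert an oxygen atom into such compounds, with electrons passed on by the reductase *POR*, and conjugating enzymes then make the products soluble. In pig liver *CYP2E1* and *CYP2A19* take part in the oxidation of skatole. *CYP1A1* and *CYP1A2* are neighbours in the pig genome and are known for induction through the aryl hydrocarbon receptor, and *CYP2D25* was described as a hydroxylase of vitamin D.

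The deposited values were log2 intensities after GCRMA, where a difference of 1 is a factor of 2. They ran down to 2.19, and the highest value of an array was between 15.86 and 16. The mean correlation of an array with the others was 0.969 to 0.978, lowest in H4. The labels named no batch. The 8 hepatocyte markers listed were all measured, with a mean level of 14.79 to 15 in the H animals and 14.89 to 15.06 in the L animals. Arrays H4 and L4 went against the female label: *EIF1AY*, a Y-linked gene, had a value of 10.04 in H4 and 10.16 in L4 and was at 2.19 in the other 8 arrays. In this pair of arrays 4 probe sets lay over 6 log2 units above, and 6 over 6 log2 units below, all other arrays, and no probe set did so in any of the other 44 pairs. The differences, SDs and correlations of the P450 genes and the differences of the gene lists are therefore also given without H4 and L4.

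*CYP2E1*, which oxidises ethanol and other small molecules besides skatole, gave one of the narrowest sets of values once H4 was set aside. In the H animals its probe set, Ssc.15741.1.S1_s_at, had values of 14.96 (H1), 15.11 (H2), 14.98 (H3), 14.41 (H4) and 15.10 (H5). In the L animals it had 15.12 (L1), 15.14 (L2), 15.09 (L3), 15.18 (L4) and 15.12 (L5). H4 was lowest and L4 highest, and the groups overlapped only in that H2 and H5 lay above L3. The level was less than 2 log2 units below the top of the array's scale, and the suffix of the probe set marks probes that can be shared by transcripts of other genes. Whether either limited the spread was not tested.

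*CYP2A19*, the porcine counterpart of human *CYP2A6*, held the largest gap of the 4 genes. In the H animals Ssc.15742.2.S1_a_at had values of 12.76 (H1), 13.22 (H2), 14.22 (H3), 7.98 (H4) and 12.76 (H5). In the L animals it had 14.25 (L1), 13.29 (L2), 12.70 (L3), 12.23 (L4) and 14.12 (L5). The other 4 H animals lay within the span of the L animals, while H4 was 4.25 log2 units, or 19.1-fold, below the next lowest animal, which was L4. Of the 4730 genes tested, 3 had H4 more than 4 log2 units below every other animal (0.0634%), namely *CYP2A19*, *HSD17B2* and *SULT1A3*; the gap was looked for after the values were seen. In each of the other 9 animals at most 1 gene lay that far below all the rest. By Dixon's test H4 lay apart on the low side of the H group in *CYP2A19* and *CYP2E1*, as it did in 62 of all genes (1.31%).

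*CYP1A1*, a mostly inducible enzyme, had low values that differed widely from animal to animal. In the H animals Ssc.208.1.S1_at had 5.06 (H1), 4.33 (H2), 5.31 (H3), 4.84 (H4) and 2.74 (H5). In the L animals it had 3.99 (L1), 4.26 (L2), 2.91 (L3), 5.75 (L4) and 6.95 (L5). H5 and L3 were both near the lowest value of the arrays, and L5 was the highest. The H animals ran from 2.74 to 5.31 and the L animals from 2.91 to 6.95, with L4 and L5 above all H animals. H4 was in the middle of the H animals here.

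The 2 probe sets of *CYP2D25* did not rank the animals alike. In the H animals Ssc.4617.1.S1_at had 13.27 (H1), 12.91 (H2), 12.90 (H3), 12.24 (H4) and 13.04 (H5), and in the L animals it had 12.90 (L1), 13.24 (L2), 12.68 (L3), 12.87 (L4) and 13.11 (L5). H4 was again the lowest of the 10. For Ssc.4617.2.S1_at the H animals had 9.73 (H1), 9.85 (H2), 9.84 (H3), 9.87 (H4) and 10.11 (H5), and the L animals had 9.91 (L1), 10.02 (L2), 10.02 (L3), 10.05 (L4) and 9.91 (L5). Here H4 was not the lowest, and every H animal except H5, the highest of the 10, lay below all L animals. Pearson's r between the 2 probe sets was -0.02 (p = 0.957, permutation test, n = 10) and Spearman's rho was -0.12 (p = 0.759, permutation test). The gene value used from here on is the mean of both.

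**Figure D1:**
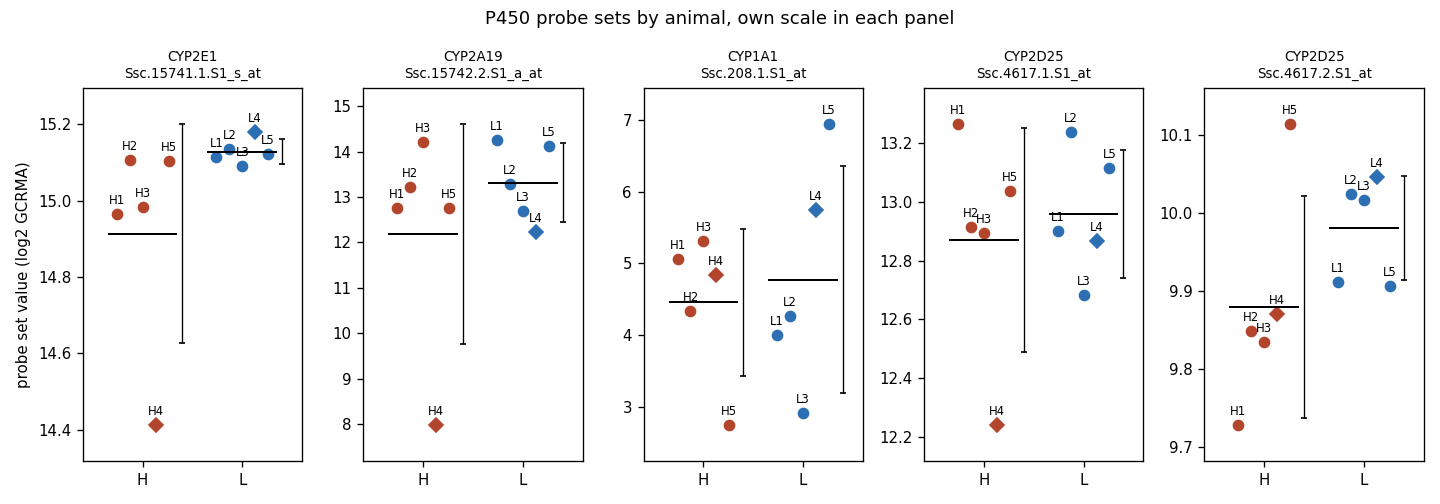
Log2 value of each of the 5 P450 probe sets in every animal, H left and L right, with a separate scale in each panel; horizontal lines are group means, bars beside them are SD (n = 5) and diamonds mark H4 and L4. H4 is the lowest animal for *CYP2E1* (14.41), *CYP2A19* (7.98) and the first *CYP2D25* probe set (12.24), but not for *CYP1A1* or the second *CYP2D25* probe set.

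The spread over the 10 animals was described by the SD of the gene value and by its percentile among all genes tested, whose median SD was 0.22. *CYP2A19* had an SD of 1.82 (percentile 99.7) and *CYP1A1* one of 1.27 (percentile 99.4), both in the top 1% of the genes by SD. *CYP2E1* had an SD of 0.22 (percentile 50.4) and *CYP2D25* one of 0.16 (percentile 25.9), in the middle and lower part of the genes. The probe sets of *CYP2D25* taken alone were at percentiles 70.3 (Ssc.4617.1.S1_at) and 11.3 (Ssc.4617.2.S1_at). From the lowest to the highest animal the values covered 77.3-fold for *CYP2A19*, 1.70-fold for *CYP2E1* and 1.49-fold for *CYP2D25*. For *CYP1A1* no fold is given, since H5 and L3 lay below the median value of the arrays (3.77 to 3.84), and the part of background in its spread was not tested.

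The sizes changed without H4, and *CYP1A1* was then the most variable of the 4. Without H4 the SD of *CYP2A19* was 0.75 (percentile 97.1) and that of *CYP1A1* was 1.34 (percentile 99.6). The SD of *CYP2E1* was then 0.07 (percentile 2.56) and that of *CYP2D25* 0.10 (percentile 7.40). *CYP2A19* and *CYP1A1* thus stayed in the upper part of the genes by SD, whereas *CYP2E1* and the gene value of *CYP2D25* were among those that varied least. That value is a mean of probe sets that did not move together. Alone, without H4, they were at percentiles 38.9 (Ssc.4617.1.S1_at) and 14.1 (Ssc.4617.2.S1_at). Without both H4 and L4 the SDs were 0.68 for *CYP2A19*, 1.36 for *CYP1A1*, 0.07 for *CYP2E1* and 0.10 for *CYP2D25*.

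The comparison of H with L animals asks whether levels of these enzymes differed between pigs at the extremes of muscle fatty acid composition. None of the 4 genes passed the test. All 4 had a lower mean in H than in L, as did 62.8% of all genes tested (61.7% without H4, where all 4 were again lower), and in *CYP1A1* the sign changed when 1 animal was left out. With an adjusted p under 0.05, 0 of the 4730 genes were called (0.0%) and 0 of the 4 P450 genes; at an unadjusted p under 0.05, limma called 125 genes (2.64%) and again 0 of the 4.

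*CYP2E1* averaged 14.91 ± 0.29 in H animals and 15.13 ± 0.03 in L animals (SD, n = 5 each). The difference, H minus L, was -0.21 (SE 0.13, 95% interval -0.50 to 0.07), with an adjusted p of 0.985 by limma. An exact permutation test over the 252 splits of the animals gave an unadjusted, two-sided p of 0.0317 for it, 1 of 4 such tests on these genes. The SDs of the groups were far apart because H4 lay in the H group, and without H4 the difference was -0.09 (limma, SE 0.07, adjusted p = 0.972; exact p = 0.0317). Without H4 and L4 it was -0.08 (limma, SE 0.07, adjusted p = 1.0; exact p = 0.114). The separation of the groups in *CYP2E1* was thus small apart from H4, and it did not pass the test over all genes.

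*CYP2A19* averaged 12.19 ± 2.43 in H animals and 13.32 ± 0.88 in L animals (SD, n = 5 each). The difference was -1.13 (SE 1.02, 95% interval -3.39 to 1.13, adjusted p = 0.985 by limma; exact permutation p = 0.460). It rested on H4: without H4 it was -0.08 (95% interval -1.13 to 0.98), and without H4 and L4 it was -0.35 (95% interval -1.34 to 0.65). Without H4 the interval leaves room for a difference of either sign of about a factor of 2.

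*CYP1A1* averaged 4.46 ± 1.02 in H animals and 4.77 ± 1.58 in L animals (SD, n = 5 each). The difference was -0.32 (SE 0.75, 95% interval -1.97 to 1.34, adjusted p = 0.985 by limma; exact permutation p = 0.722). It was -0.17 without H4 and L4, and it was 0.23 without L5 and 0.11 without H5. For *CYP1A1* the direction between the groups was therefore not settled by these animals.

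*CYP2D25* averaged 11.38 ± 0.20 in H animals and 11.47 ± 0.11 in L animals (SD, n = 5 each). The difference was -0.10 (SE 0.11, 95% interval -0.33 to 0.14, adjusted p = 0.985 by limma; exact permutation p = 0.421). Its probe sets taken alone gave -0.09 (SE 0.18) for Ssc.4617.1.S1_at and -0.10 (SE 0.08) for Ssc.4617.2.S1_at. Without H4 the difference of the gene was -0.02 (SE 0.09), and the first probe set was then 0.07 higher in H (SE 0.13). Without H4 and L4 the difference of the gene was again -0.02 (SE 0.09).

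**Figure D2:**
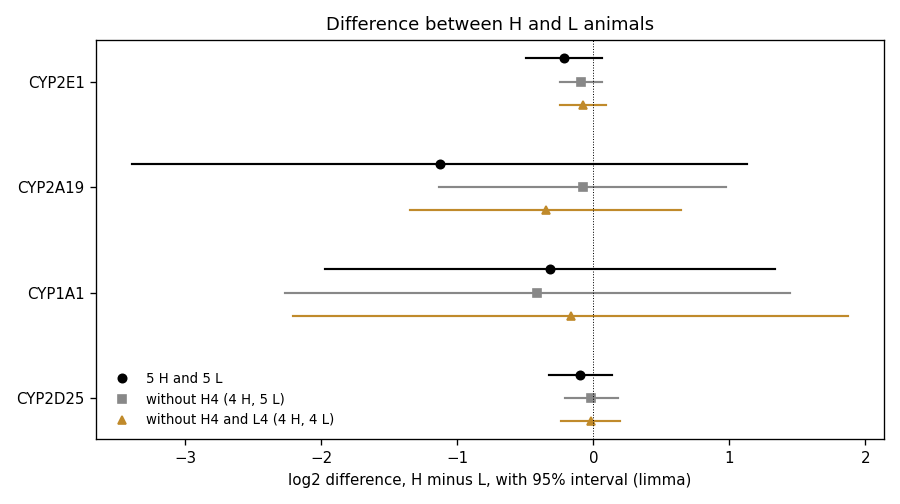
Difference between H and L animals (log2, H minus L) of each P450 gene with its 95% interval from limma, for 5 H and 5 L animals, without H4, and without H4 and L4. All 12 intervals include 0, and that of *CYP2A19* narrows from -3.39 to 1.13 with all animals to -1.13 to 0.98 without H4.

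Whether the enzymes moved together over the animals was examined in the 6 pairs of the 4 measured genes. With all 10 animals 3 pairs had an r of at least 0.6, against 6.03% of all pairs of genes tested, but none passed after adjustment over the 6 pairs. The 3 pairs were those among *CYP2E1*, *CYP2A19* and *CYP2D25*. *CYP2E1* and *CYP2A19* had r = 0.86 (permutation p = 0.0699, adjusted p = 0.140) and rho = 0.28 (permutation p = 0.428, adjusted p = 0.857). *CYP2E1* and *CYP2D25* had r = 0.82 (permutation p = 0.0276, adjusted p = 0.140) and rho = 0.58 (permutation p = 0.0891, adjusted p = 0.535). *CYP2A19* and *CYP2D25* had r = 0.71 (permutation p = 0.0670, adjusted p = 0.140) and rho = 0.30 (permutation p = 0.407, adjusted p = 0.857). In all 3 pairs rho was well below r. H4 was the lowest animal of each gene, and how far it lay below the others enters r but not rho.

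The high r in these 3 pairs rested on H4. Without H4, r was -0.20 for *CYP2E1* and *CYP2A19*, 0.24 for *CYP2E1* and *CYP2D25*, and -0.18 for *CYP2A19* and *CYP2D25*. Without H4 and L4, r of the same pairs was 0.07, 0.29 and -0.23 (n = 8). The exact permutation p without H4 was 0.602, 0.532 and 0.640 (n = 9), and 0 of the 6 pairs had an r of at least 0.6, against 7.6% of all gene pairs without H4. When the 2 animals at the greatest distance from the first gene's median were left out (n = 8), r was -0.52 for *CYP2E1* and *CYP2A19* and 0.44 for *CYP2E1* and *CYP2D25*, both without H1 and H4, and -0.08 for *CYP2A19* and *CYP2D25*, without H4 and L1. As with all animals, no pair of the 3 enzymes had a relation that passed the test without this 1 animal.

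*CYP1A1* had no relation with the other 3 genes that passed the test, with or without H4. Its r was -0.07 with *CYP2E1* (permutation p = 0.830), 0.07 with *CYP2A19* (permutation p = 0.835) and -0.03 with *CYP2D25* (permutation p = 0.927), each with an adjusted p of 0.927, and its rho was 0.14, 0.01 and -0.02 with the same genes. Without the 2 farthest animals r was 0.09 with *CYP2E1*, 0.46 with *CYP2A19* and 0.01 with *CYP2D25*. Without H4 and L4 its r with *CYP2A19* was 0.61 (exact permutation p = 0.111, adjusted p = 0.667, n = 8), the only one of the 6 pairs at or above 0.6 there, against 9.0% of all gene pairs. Its r in the same animals was -0.22 with *CYP2E1* and 0.04 with *CYP2D25*.

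The probe sets of *CYP2D25* differed in this respect too. Ssc.4617.1.S1_at had r = 0.72 with *CYP2E1* and r = 0.75 with *CYP2A19*, and without H4 these were -0.22 and 0.07. Ssc.4617.2.S1_at had r = 0.38 with *CYP2E1* and r = 0.02 with *CYP2A19*, and without H4 these were 0.73 and -0.38. As descriptions over 9 or 10 animals they show that the gene's place among the other enzymes depended on the probe set.

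**Figure D3:**
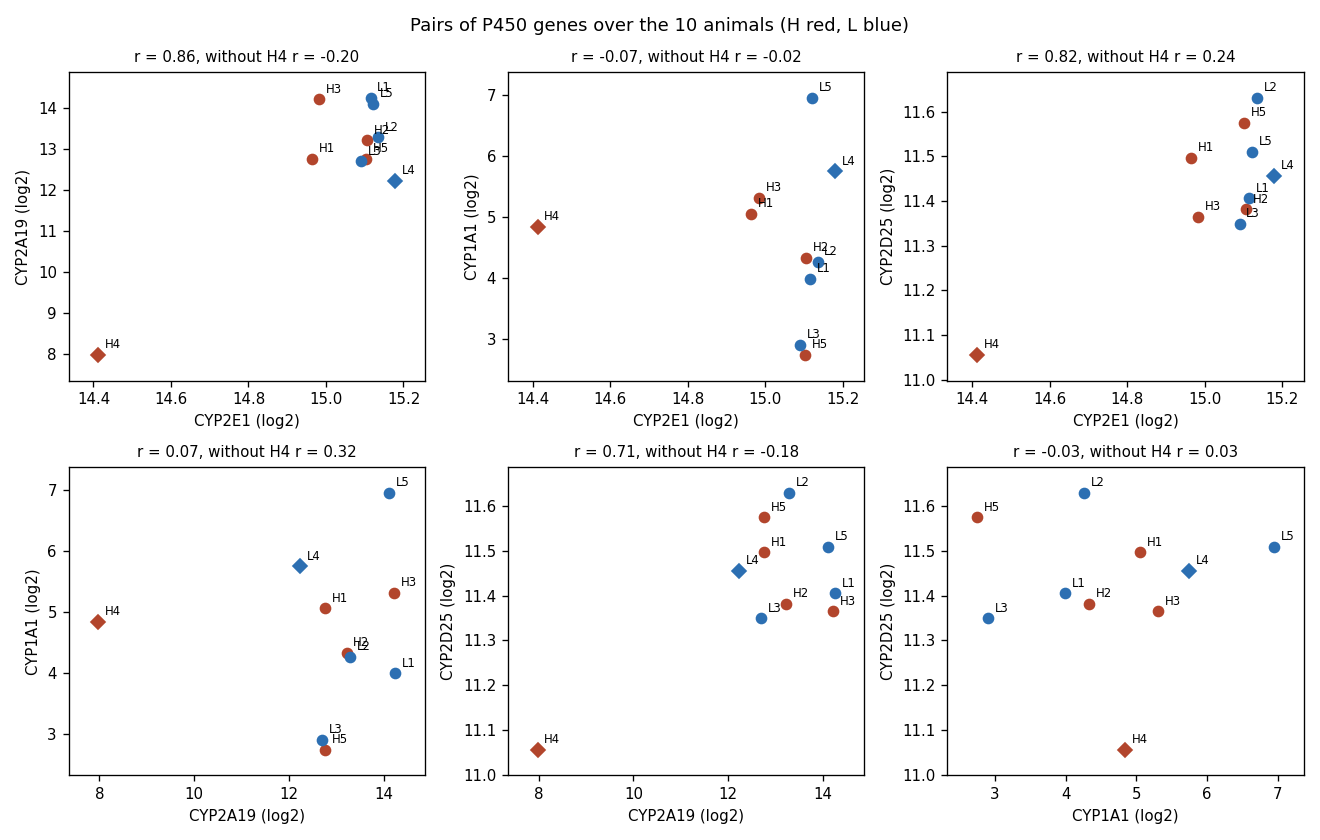
Log2 values of each pair of P450 genes in the 10 animals (H red, L blue, diamonds H4 and L4), with r over all animals and without H4 above each panel. In the panels of *CYP2E1*, *CYP2A19* and *CYP2D25*, H4 lies alone at the lower left, and r falls to between -0.20 and 0.24 without it.

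Among the other genes tested, the 3 with the highest and the 1 with the lowest r over the 10 animals were taken for each P450 gene. They were chosen for this likeness, so r is a description with no test. The genes most like *CYP2A19* were *HSD3B1*, a steroid dehydrogenase (r = 0.97), *MAGI3*, a scaffold protein (r = 0.97), and *HSD17B2*, which turns oestradiol and testosterone into weaker steroids (r = 0.96). Opposite to it ran *GTF2H1*, a subunit of the general transcription factor TFIIH (r = -0.95). These 4 were held in part by the other animals, since without H4 r was 0.76 for *HSD3B1*, 0.86 for *MAGI3*, 0.76 for *HSD17B2* and -0.87 for *GTF2H1*.

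*HSD17B2* showed the widest of these gaps. In the H animals it had 9.98 (H1), 10.34 (H2), 11.63 (H3), 3.21 (H4) and 10.44 (H5), and in the L animals 10.63 (L1), 10.52 (L2), 9.90 (L3), 10.44 (L4) and 11.21 (L5). H4 was close to the lowest values of the array, while the other 9 animals lay between 9.90 and 11.63. *HSD3B1* was 6.72 in H4 and between 8.37 and 9.17 in the other 9 animals, the lowest of which was L4. *MAGI3* was 6.62 in H4 and between 7.35 and 8.01 in the others, again with L4 next. *GTF2H1* was 8.82 in H4 and at most 8.63, in L4, in the others.

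The genes most like *CYP2E1* were so through H4 alone. They were *TGFB1*, a cytokine (r = 0.95), *SULT1A3*, a sulfotransferase that conjugates phenols (r = 0.94), and *CRP*, an acute-phase protein (r = 0.93), with *FXR2*, an RNA-binding protein, opposite (r = -0.96). Without H4 their r was 0.07, 0.10, 0.30 and -0.32, and their rho over all 10 animals was 0.31, 0.48, 0.15 and -0.72. *TGFB1* and *FXR2* were nearly constant apart from H4, at 5.40 to 5.42 and 6.05 to 6.07, against 5.11 and 6.27 in H4. All L animals had the same value of *TGFB1* (SD 0.0). Whether either gene gave a signal above background was not tested. *SULT1A3* was 5.93 in H4 and between 9.97 and 11.14 in the other 9 animals, and *CRP* was 9.08 in H4 and between 11.65 and 13.08 in the others.

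For *CYP1A1* the likeness did not depend on H4. The most like genes were *MCRIP2* (r = 0.88), *SIDT2*, a lysosomal membrane protein (r = 0.88), and *SLC9A3R1*, a scaffold under the cell membrane (r = 0.87), with *DSTN*, an actin-depolymerising protein, opposite (r = -0.89). Without H4 r was 0.90, 0.88, 0.92 and -0.98. *DSTN* had 8.0 (H1), 8.0 (H2), 7.78 (H3), 8.22 (H4) and 8.25 (H5) in the H animals and 8.04 (L1), 8.02 (L2), 8.26 (L3), 7.74 (L4) and 7.56 (L5) in the L animals. It was highest in L3 and H5, where *CYP1A1* was lowest, and lowest in L5, where *CYP1A1* was highest.

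The genes most like *CYP2D25* were *ENPP2*, the enzyme autotaxin (r = 0.93), *PGLYRP2*, a peptidoglycan amidase secreted by the liver (r = 0.92), and *DCPS*, an enzyme that degrades the caps of decayed mRNA (r = 0.90), with *BIVM* opposite (r = -0.94). Without H4 r was 0.79, 0.80, 0.85 and -0.82. *ENPP2* was 8.30 in H4 and between 9.04 and 10.16 in the others, and *BIVM* was 8.37 in H4 and between 6.21 and 7.10 in the others. H4 was thus at the end of the range in both.

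Of the genes that serve P450 enzymes, none passed the test between the groups. In the list of electron supply and haem metabolism 8 of 10 genes were measured and 0 passed, 2 being higher and 6 lower in H, with a median difference of -0.06, against -0.04 over all genes tested. *HMOX1*, which breaks haem down, had the smallest p and averaged 9.05 ± 0.23 in H animals and 9.37 ± 0.31 in L animals (SD, n = 5 each), a difference of -0.32 (SE 0.16, adjusted p = 0.985 by limma). *UROD*, an enzyme of haem synthesis, differed by -0.14 (SE 0.16). Leaving out H4 turned the sign of the list's median to 0.05, and without H4 and L4 it was 0.03, while *HMOX1* differed by -0.34 without H4 and -0.45 without both. The median r of this list was 0.32 with *CYP2E1* and 0.41 with *CYP2A19*, and it was -0.01 and 0.10 without H4.

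Regulators were measured in part. Of the 12 genes listed for the aryl hydrocarbon receptor and its targets, 3 were tested and 0 passed, with a median difference of -0.06. The 3 were *HSP90AA1*, *HSP90AB1* and *NQO1*, so the receptor itself was not tested. *HSP90AA1* and *HSP90AB1*, chaperones that hold the receptor in the cytosol, differed by -0.06 (SE 0.13) and -0.10 (SE 0.11). *NQO1*, named after its value was seen, differed by 0.16 (SE 0.38), and by 0.41 without H4. The median of the 3 was -0.05 without H4, and -0.07 without H4 and L4. The median r of these 3 with *CYP1A1* was 0.16. Of the 12 nuclear receptors and liver factors, 6 were tested and 0 passed, with a median difference of -0.08, which was -0.12 both without H4 and without H4 and L4. *NR1I2*, the receptor PXR that senses drugs and bile acids, was the only listed gene of any pathway with an unadjusted p under 0.05 lower in H, as were 1.84% of all genes, and it did not pass after adjustment over all genes.

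*NR1I2* had 5.92 (H1), 5.91 (H2), 5.89 (H3), 5.69 (H4) and 6.02 (H5) in the H animals and 6.25 (L1), 6.19 (L2), 6.10 (L3), 6.71 (L4) and 6.06 (L5) in the L animals. Every H animal lay below every L animal, as in 0.254% of all genes, by a small margin between H5 and L5, and H4 and L4 were at the ends. The difference was -0.38 (SE 0.13, adjusted p = 0.985 by limma), and it was -0.33 without H4 and -0.21 without H4 and L4. Its r was 0.65 with *CYP2E1* and 0.71 without H4. *CEBPA*, a factor of hepatocyte genes, differed by -0.21 (SE 0.22), and by -0.13 without H4 and L4.

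Of 24 genes listed for later steps of clearance, 11 were tested and 0 passed, 3 being higher and 8 lower in H, with a median difference of -0.13, which was -0.06 without H4 and -0.04 without H4 and L4. *GSTA1*, a glutathione transferase, averaged 13.91 ± 0.67 in H animals and 14.38 ± 0.18 in L animals (SD, n = 5 each), and *FMO1*, a flavin monooxygenase, averaged 13.54 ± 0.37 in H animals and 13.29 ± 0.21 in L animals (SD, n = 5 each). Their differences were -0.47 (SE 0.28) and 0.25 (SE 0.18), each with an adjusted p of 0.985 by limma, and without H4 and L4 they were -0.29 and 0.15. The median r of this list was 0.30 with *CYP1A1* and 0.49 without H4, against about 0 over all genes in both. *EPHX1*, the microsomal epoxide hydrolase, had r = 0.85 with *CYP1A1* and 0.91 without H4, and was named after its value was seen.

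Of the 11 other P450 genes of families 1 to 4 that were tested, 0 passed, 6 being higher and 5 lower in H, with a median difference of 0.14, which was 0.04 without H4 and 0.10 without H4 and L4. *CYP2C91* averaged 5.41 ± 1.45 in H animals and 6.77 ± 1.07 in L animals (SD, n = 5 each), a difference of -1.36 (SE 0.71), and *CYP2C49* averaged 13.18 ± 0.75 in H animals and 12.36 ± 0.83 in L animals (SD, n = 5 each), a difference of 0.83 (SE 0.45), both with an adjusted p of 0.985 by limma. Without H4 and L4 these were -0.90 and 0.77. The 11 genes thus had no common direction, and their median r was -0.05 with *CYP2E1* and -0.06 with *CYP2A19*. In H4, where *CYP2A19* was lowest, *CYP2C36* was 11.17, against 2.53 to 6.28 in the other 9 animals. *CYP2B22*, which lies 3 genes from *CYP2A19* in the pig genome and did not reach the filter, was 5.32 in H4, against 3.39 to 4.44 in the others; both were named after their values were seen.

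*CYP2E1* is also an enzyme of ethanol and ketone handling and, in mouse liver, of the pericentral zone. Of 10 genes of ethanol and ketone handling 6 were tested and 0 passed, with a median difference of 0.02, which was 0.07 without H4 and 0.05 without H4 and L4. *ALDH1B1* and *BDH1*, dehydrogenases of aldehydes and ketone bodies, differed by 0.29 (SE 0.33) and 0.20 (SE 0.26). Without H4 they differed by 0.25 and 0.09, and without H4 and L4 by 0.07 and 0.13. Of 13 genes that are pericentral in mouse 8 were tested and 0 passed, 5 being higher and 3 lower in H, with a median difference of 0.08. Of 13 that are periportal in mouse 9 were tested and 0 passed, 8 being higher and 1 lower in H, with a median difference of 0.15. Without H4 these medians were 0.12 and 0.28, and without H4 and L4 they were 0.10 and 0.27. Over all genes tested 62.8% were lower in H, and the median difference was -0.04 with or without H4. Among the pericentral genes *RHBG*, an ammonia transporter, differed by -0.70 (SE 0.53) and *GULO* by -0.49 (SE 0.48), which without H4 and L4 were -0.84 and -0.24. Among the periportal genes the urea cycle enzymes *CPS1* and *OTC* differed by 0.15 (SE 0.11) and 0.36 (SE 0.29), and by 0.16 and 0.43 without H4 and L4. The median r with *CYP2E1* was 0.21 for pericentral genes and -0.03 for periportal genes, against 0.07 over all genes tested. Without H4 it was -0.23 and -0.50, against 0.13 over all genes.

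Since whole liver was measured, fewer cells of a type and less RNA per cell cannot be told apart. In H4 the mean of the 8 hepatocyte markers was 14.91, within the 14.79 to 15.06 of the other 9 animals, but these values lie near the top of the array's scale, and the share of hepatocytes was not tested. The mean of the 5 Kupffer cell markers was 8.99 in H4, the lowest, against 9.04 to 9.74 in the others, and that of the 4 endothelial markers was 7.51, against 7.27 to 8.23. The mean of the 4 stellate cell and fibroblast markers was 7.94 in H4, against 7.32 to 8.38, and that of the 2 cholangiocyte markers was 7.54, the highest, against 6.78 to 7.48. The part of the Kupffer cell and cholangiocyte markers in the H4 values was not tested. *HBB* of erythroid cells, *CD8A* of T cells and *JCHAIN* of plasma cells were the only markers tested of their lists, and H4 was within the range of the others in each, at 9.18, 4.63 and 9.77.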

How the data were processed

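The authors hybridised total liver RNA of 10 pigs to the GeneChip Porcine array, 1 array per animal, and deposited log2 intensity values per probe set after processing with GCOS and GCRMA (versions not given in the sources used here). Of 24123 probe sets, 124 controls were left out. The platform table gave 1 symbol to 10069 probe sets, several to 198 and none to the rest; 9961 were named through their Entrez ID and 108 kept the platform's name, giving 6765 genes. A gene's value was the mean of its probe sets with a mean log2 of at least 4, which left 4730 genes. Group differences were fitted in R 4.3.3 by limma 3.58.1 (lmFit, eBayes, two-sided, no covariate), with Benjamini-Hochberg adjustment over all 4730 genes, and single genes also with exact permutation tests (two-sided). Each animal is 1 sample, so p-values measure the spread between these animals, and 5 arrays per group limit the precision. The tests take the animals as independent, although some of opposite groups were sibs and each group had fewer fathers than animals. Correlations were tested by permutation (100000 resamples with 10 animals, exact with fewer) in Python 3.11.15 and adjusted over 6 pairs, since *CYP1A2* had no probe set. Programs were tested on simulated data.

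The members and the gene lists were chosen with earlier results of these data known. Genes named besides the members were, for each member, the 3 with the highest and the 1 with the lowest r, and of each list those past an adjusted p of 0.05 or else the 2 with the smallest p; the text says where a gene was named after its value was seen. Alternatives were filters at 3, at 6 and none, quantile normalization, centring of arrays, array weights, a covariate for RNA degradation (GAPDH, 3' less 5' probe sets), the replicate number as a block, a trended robust prior, the brightest probe set, single probe sets, other thresholds and each animal left out. The omission of H4 and L4 together was chosen after seeing the data. Which genes neighbour each other was read from RefSeq's gene table of the pig assembly Sscrofa11.1, which is not the build of the study's methods, so no coordinates are given. Sequences were not used here.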

Additional observations from a re-analysis of the deposited data

Results flagged for a closer look

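In a group of 5, an animal was singled out when its gap to the nearest other animal was too large a share of the group's range by Dixon's 95% limit, which chance alone exceeds in about 5% of groups; 12 of the 76 groups examined held such an animal. In 8 of them it was H4: low for *CYP2E1* (14.41, others 14.96 to 15.11), *CYP2A19* (7.98, others 12.76 to 14.22), *HSD17B2* (3.21, others 9.98 to 11.63), *HSD3B1* (6.72, others 8.77 to 9.17), *MAGI3* (6.62, others 7.64 to 7.81), *SULT1A3* (5.93, others 9.97 to 10.80) and *TGFB1* (5.11, others 5.40 to 5.42), and high for *FXR2* (6.27, others 6.07). The named genes were chosen by their likeness to the P450 genes, so these flags are not independent of one another. Over all 4730 genes H4 lay apart on the low side of its group in 62 (1.31%), and H3 in 47. Counting both sides, H4 lay apart in 107 genes, H2 in 118 and L3, in the L group, in 150.

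The remaining 4 were in the L group: *HSP90AB1* was low in L2 (11.64, others 11.93 to 12.01), *PGLYRP2* high in L2 (10.90, others 10.43 to 10.51), *NR1I2* high in L4 (6.71, others 6.06 to 6.25) and *OTC* low in L3 (9.28, others 10.55 to 10.94). Outside the comparisons, Y-linked *EIF1AY* gave a signal of 10.04 in H4 and 10.16 in L4, against 2.19 in the other arrays, although all animals were labelled female.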

How the results depend on the processing

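No P450 gene and no gene or probe set of the array had an adjusted p under 0.05 with limma under any alternative run. At a fold of 1.5 or more with p at or under 0.005 before adjustment, 0 genes and 0 probe sets passed in the fit used above. With all animals kept, 2 genes and 3 probe sets passed with array weights, and 1 and 4 with the replicate number as a block. The covariate for RNA degradation gave 0 and 2, and centring of arrays gave 0 and 1. With 1 animal left out, 6 genes and 18 probe sets passed without H2, 4 and 13 without L2, and 3 and 9 without H4. With each animal left out in turn the difference, H minus L, ranged from -0.26 to -0.09 for *CYP2E1*, -1.64 to -0.08 for *CYP2A19*, -0.78 to 0.23 for *CYP1A1* and -0.15 to -0.02 for *CYP2D25*. Only *CYP1A1* changed sign, without H5 and without L5; a filter at 6 removed it. Replicate numbers did not in general pair the animals: deviations of same-numbered animals correlated at 0.08, -0.24, -0.10, 0.28 and 0.02. The 0.28 was that of H4 and L4, and only H4 had its same-numbered animal as the closest of the L group. With the number as a block the 4 differences were the same, as they must be with 1 H and 1 L animal per number. The SE was then 0.13 for *CYP2E1*, 0.75 for *CYP2A19*, 0.88 for *CYP1A1* and 0.11 for *CYP2D25*, against 0.13, 1.02, 0.75 and 0.11 without the block. With the block 140 genes had an unadjusted p under 0.05 in place of 125.

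Genes with an unadjusted p under 0.05 numbered 90 to 281 with 1 animal left out, with 213 without H2 and 281 without L2, and probe sets 237 to 685 around 363, with 617 without H2, 685 without L2 and 237 without L4.

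Correlations moved most. With 1 animal left out r ranged from -0.20 to 0.92 for *CYP2E1* and *CYP2A19*, 0.24 to 0.85 for *CYP2E1* and *CYP2D25*, -0.18 to 0.78 for *CYP2A19* and *CYP2D25*, -0.22 to 0.0015 for *CYP2E1* and *CYP1A1*, -0.14 to 0.32 for *CYP2A19* and *CYP1A1* and -0.21 to 0.18 for *CYP1A1* and *CYP2D25*. Without the 2 farthest animals the sign turned for *CYP2E1* with *CYP2A19* (-0.52), *CYP2E1* with *CYP1A1* (0.089), *CYP2A19* with *CYP2D25* (-0.082) and *CYP1A1* with *CYP2D25* (0.0089). Without H4 and L4 it turned for *CYP2A19* with *CYP2D25* (-0.23) and *CYP1A1* with *CYP2D25* (0.042). On the linear scale *CYP1A1* had r = 0.10 with *CYP2E1* and 0.11 with *CYP2D25*, with ranks 0.14 with *CYP2E1*, and with the brightest probe set 0.14 with *CYP2D25*. *CYP2E1* and *CYP2D25* passed the threshold after quantile normalization (r = 0.85, permutation p = 0.00271, adjusted p = 0.0163) and after centring of arrays (r = 0.81, permutation p = 0.00782, adjusted p = 0.0469), both with H4 included. Their rho was then 0.75 (permutation p = 0.0149, adjusted p = 0.0896) and 0.68 (permutation p = 0.0348, adjusted p = 0.209). In the unchanged values rho was 0.75 without H1 (exact permutation p = 0.0255, adjusted p = 0.153) and 0.42 without H4 (exact permutation p = 0.270). The cause was not tested.

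With 1 animal left out the SD ranged from 0.070 to 0.24 for *CYP2E1*, 0.75 to 1.93 for *CYP2A19*, 1.03 to 1.34 for *CYP1A1* and 0.10 to 0.17 for *CYP2D25*, the lowest being without H4 in all but *CYP1A1*. Without H4 and L4 it was 0.066 for *CYP2E1*, 0.68 for *CYP2A19* and 0.10 for *CYP2D25*, and with the brightest probe set 0.30 for *CYP2D25*. *CYP1A1* lay near the dim end of the scale in H5 and L3, and *CYP2E1* near the bright end.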
